A study of Homo sapiens with 14 samples.

Results

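The 6 arrays taken 16, 24 and 32 h after transfection of HepG2 cells with miR-124 or the negative control are described here, out of 14 arrays that ran from 4 to 120 h. They form 3 pairs, each an miR-124 array and a control array of the same hour, and were fitted on their own. HepG2 is an established human cell line from a liver tumour. The labels name the agents only as miR-124 and negative control, and give no doses, reagent or sequence for either. Every group is HepG2: miR-124 at 16, 24 and 32 h (3 arrays), the control at the same hours (3 arrays), and, used only to look at the same genes outside these hours, 1 array of each transfection at 4, 8, 72 and 120 h. Each array measured total RNA as biotin-labelled cRNA on a one-colour oligonucleotide array. One probe set stood for each of 19775 genes, the one with the highest mean over the 14 arrays, and 13137 genes above a filter on dim probe sets (a mean log2 level over 6.19) were tested.

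MicroRNAs are short RNAs that guide Argonaute proteins to matching sites, mostly in the 3′ untranslated region of messenger RNAs, where the bound TNRC6 proteins recruit enzymes that shorten the poly(A) tail and remove the cap. The messenger RNA is then degraded, so direct targets fall, and genes that respond to those targets move later and in either direction. miR-124 is abundant in neurons and scarce in liver. Its known targets include the splicing repressor PTBP1, the small phosphatases that act with the neuronal gene repressor REST, and regulators of the cell cycle and of adhesion.

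Of the markers of liver cells, ALB and AFP were bright on every array, and levels of the others are not given here. Of 12 hepatoma markers tested, 11 were not called and FGB rose (0.26 ± 0.06, a call lost without 24 h and without 32 h), with ALB at 13.88, 13.88 and 13.81 on the control arrays and 13.87, 13.74 and 13.78 with miR-124, on the log2 scale. AFP, the fetal counterpart of albumin, lay between 13.54 and 13.62 on all 6 arrays. Correlations between the 6 arrays over genes ran from 0.973 to 0.997. Of 5 blood cell markers tested, CD3D was called higher (log2 0.58 ± 0.11), and of 11 fibroblast and endothelial markers PECAM1 was (0.33 ± 0.06). A measure of RNA quality, the 3′ minus the 5′ probe set, was larger with miR-124 in each pair: for ACTB 0.357 against 0.315 at 16 h, 0.561 against 0.271 at 24 h and 0.418 against 0.278 at 32 h on the log2 scale. For GAPDH it was 0.199 against 0.178, 0.286 against 0.201 and 0.248 against 0.188. Its part in the results below was not tested.

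Transfection with miR-124 changed 2164 genes at 16 to 32 h (16.5% of those tested), 1074 lower (8.18%) and 1090 higher (8.3%). Counts of called genes in the lists below are to be read against these shares. Both directions were alike in number and unlike in size. The median called gene that fell was 1.41-fold lower (log2 −0.50) and the median that rose was 1.28-fold higher (log2 0.35). Of 550 called genes that moved at least 1.5-fold, 434 were lower, or 78.9%. At 2-fold the count was 159 lower and 15 higher, at 3-fold 25 lower and 1 higher, and at 4-fold 12 lower and none higher. The test was limma's moderated fit with the time point as a block, two-sided, with a Benjamini-Hochberg adjusted p under 0.05 over all genes tested. Changes are log2 miR-124 minus control with limma's moderated standard error (n = 3 pairs). In 1950 of the called genes (976 lower, 974 higher) the 3 arrays of one arm did not overlap the 3 of the other. This was counted among called genes only, and picking genes by p favours such separation, so it is no added evidence.

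The count rests on which hour is left out. Of 13137 genes tested it was 4250 without 16 h (1752 lower, 2498 higher) and 898 without 24 h (616 lower, 282 higher). Without 32 h it was 1162 (699 lower, 463 higher). List counts without an hour, given below, are to be read against these totals, as a shift shared by all genes is no trait of a list. The count was 1317 when a gene's probe sets were summarised by their median. No label says that the arrays came from separate cultures, and each hour has 1 array an arm. The p-values and errors therefore rest on the spread of the effect between 3 hours, which mixes change with time and array noise. limma drew that spread toward one shared over all genes, with 5.37 prior degrees of freedom beside 2 residual ones per gene. Of 166 called genes named here, 55 were not called without 24 h, 36 without 32 h and none was lost without 16 h. The fit without 16 h called the most genes, so keeping a call there is no measure of stability.

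The called genes were also looked at on arrays outside the fit, with 1 array an arm at each hour and so no test. At 4 h, 65.5% of the lower genes were below their control, against 56.6% of all genes tested. Of the higher genes, 51.0% were above control at 4 h, against 43.4% of all genes. At 8 h, 835 of the 1074 lower genes (77.7%) were below their control, against 43.0% of all genes tested. Of the 1090 higher genes, 602 (55.2%) were above control at 8 h, against 56.9% of all genes. The median ratio of the lower genes ran −0.06, −0.13, −0.37, −0.53, −0.63, −0.88 and −0.37 at 4, 8, 16, 24, 32, 72 and 120 h. That of the higher genes ran 0.00, 0.02, 0.26, 0.38, 0.42, 0.69 and 0.51. So in the 1 pair of arrays at 8 h, the lower genes lay below all genes as a group and the higher genes stood where all genes stood. The genes share that pair, so their number is no replication. At 72 h, 95.6% of the lower genes were still below control and 93.9% of the higher genes still above it.

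**Figure D1:**
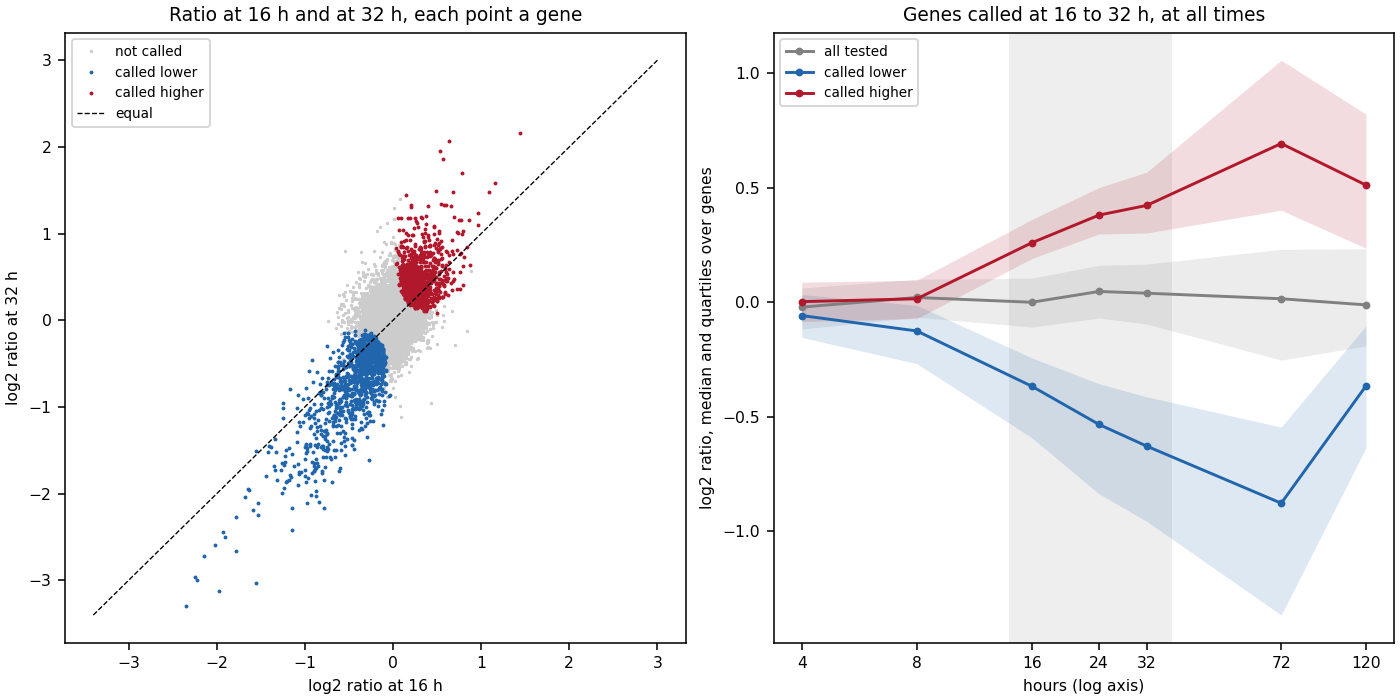
Left, the log2 ratio (miR-124 to control) at 16 h (x axis) and at 32 h (y axis) for each gene tested, coloured by its call at 16 to 32 h, with the line of equal ratios. Right, the median and quartiles over genes of the log2 ratio at each hour on a log time axis for all genes, the 1074 called lower and the 1090 called higher; grey marks the hours used in the fit, and the lower genes have a median of −0.13 at 8 h against 0.02 for the higher ones.

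The 20 genes that fell furthest came from many compartments of the cell. ATP6V0E1, the small e subunit in the membrane part of the vacuolar proton pump, stood at 11.77, 11.84 and 11.87 on the control arrays and at 9.42, 8.88 and 8.58 with miR-124 (log2 levels at 16, 24 and 32 h). Its control level changed by 0.10 from 16 to 32 h while the miR-124 level fell by 0.84, and it was 7.31-fold lower over the 3 pairs (log2 −2.87 ± 0.16, adjusted p = 0.000162). CD164, a sialomucin of endosomes and the cell surface, was at 11.62, 11.61 and 11.61 in the control and 9.40, 8.65 and 8.62 with miR-124 (log2 −2.72 ± 0.14). ACAA2, the thiolase that ends each round of mitochondrial fatty acid oxidation, was at 10.47, 10.38 and 10.43 against 8.23, 7.69 and 7.48 (−2.63 ± 0.12), but its 2 other probe sets changed far less (−0.35, and −0.22 with an adjusted p of 0.0781, limma over probe sets). SUCLG2, a subunit of succinate-CoA ligase of the citric acid cycle, was at 9.77, 9.76 and 9.70 against 7.63, 6.79 and 6.98 (−2.61 ± 0.14). In these 4 genes the control arrays stayed within a narrow band and every miR-124 array lay far below it.

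LOX, the enzyme that cross-links collagen and elastin, went from 7.94 at 16 h to 6.19 and 6.12 with miR-124, against 9.49, 9.27 and 9.14 in the control (−2.55 ± 0.27); its 2 other probe sets were at −1.21 and −0.56. GPAT3, an acyltransferase of triglyceride synthesis, was at 7.44, 6.91 and 6.73 against 9.42, 9.42 and 9.85 (−2.54 ± 0.18). The G1 kinase CDK4 was at 9.01, 8.70 and 8.40 against 11.03, 11.06 and 10.99 (−2.32 ± 0.11). It had already been 1.23 log2 units below its control at 8 h. The others among the 20 were RWDD4 (−2.38 ± 0.14), the vesicle fusion protein VAMP3 (−2.37 ± 0.16), TMEM263 (−2.17), the scaffold IQGAP1 (−2.17 ± 0.10), the mitochondrial fusion factor MIGA1 (−2.01) and MAGT1, a subunit of the oligosaccharyltransferase that also affects magnesium uptake (−1.94 ± 0.22). Then came LITAF, an endosomal protein (−1.91), RPIA, the ribose 5-phosphate isomerase of the pentose phosphate pathway (−1.89 ± 0.09), the ceramide synthase CERS2 (−1.88 ± 0.11), the centromere protein CENPQ (−1.88 ± 0.12), the cytoskeletal linker GAS2L1 (−1.86), DEPDC1B (−1.77) and CMTM6, which stabilises PD-L1 at the cell surface (−1.72). The mean miR-124 levels of CENPQ (5.39), MIGA1 (5.66) and GAS2L1 (5.98) lay under the filter of 6.19, so their falls end among dim values.

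These 20 did not start together. At 8 h, CDK4 (−1.23), SUCLG2 (−1.17), ACAA2 (−1.01) and RPIA (−0.999) were the furthest below control, while MAGT1 (−0.22), CMTM6 (−0.23), LITAF (−0.24) and CERS2 (−0.27) had moved little, with 1 array an arm and so no test. The ratio at 8 h was between 9.01% and 51.1% of that at 32 h. All 20 lay nearer to 0 at 120 h than at 72 h, with ratios from −2.58 to −0.65 at 120 h. The 10 lowest ratios at 16 h belonged to ATP6V0E1 (−2.35), ACAA2 (−2.25), CD164 (−2.23), SUCLG2 (−2.14), CDK4 (−2.01), GPAT3 (−1.98), IQGAP1 (−1.92), RWDD4 (−1.91), TMEM263 (−1.78) and VAMP3 (−1.78). All of them are also among the 20.

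The genes that rose most did so by smaller steps and, for several, as the control fell. ANKRD46 was at 7.90, 7.86 and 7.61 in the control and 9.34, 9.72 and 9.77 with miR-124, the only called gene more than 3-fold higher (3.53-fold, log2 1.82 ± 0.12, adjusted p = 0.000282). RRAGC, a Rag GTPase that carries the amino acid signal to mTORC1, was at 8.43, 8.32 and 8.59 against 9.58, 9.97 and 10.17 (1.46 ± 0.10). It was the only one of the 19 highest with a ratio over 0.5 at 8 h (0.72). ACTA1, the actin of skeletal muscle, rose from 9.62 to 9.85 and 10.21 with miR-124 while its control fell from 8.99 to 8.45 and 8.15 (1.36 ± 0.22). FAS, the death receptor, moved in the same manner, at 9.22, 9.78 and 10.01 against 8.65, 8.29 and 8.14 (1.31 ± 0.21). PTBP2, the neuronal PTB protein, was level in the control at 7.49, 7.48 and 7.52 and stood at 8.27, 8.55 and 9.22 with miR-124 (1.19 ± 0.15). In RDH11, a retinol dehydrogenase, the miR-124 level was flat at 10.85, 10.82 and 10.81 over a control at 9.77, 9.30 and 9.33 (1.36 ± 0.09).

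The rest of the 19 were ACER2, an alkaline ceramidase whose control level of 5.39 to 5.63 lay below the filter (1.30 ± 0.22), SH3RF1 (1.09), the sulfotransferase CHST15 (1.06), TAB3, an adaptor of the kinase TAK1 (1.04), the receptor kinase AXL (1.03) and TPRG1L (1.03). They also held KIAA0232 (1.02), TIGAR, a p53-induced phosphatase of glucose metabolism (1.02), the stress kinase MAP3K20 (1.02), ZCCHC10 (0.997), the Hippo kinase LATS2 (0.98), the glycosyltransferase MGAT4A (0.96) and CMAS, which activates sialic acid (0.95). In CMAS the miR-124 level changed by −0.15 from 16 to 32 h and the control by −0.88. Among called genes the 5 highest ratios at 16 h were those of ANKRD46 (1.44), RRAGC (1.15), RDH11 (1.09), MAP3K20 (0.96) and SH3RF1 (0.96).

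**Figure D2:**
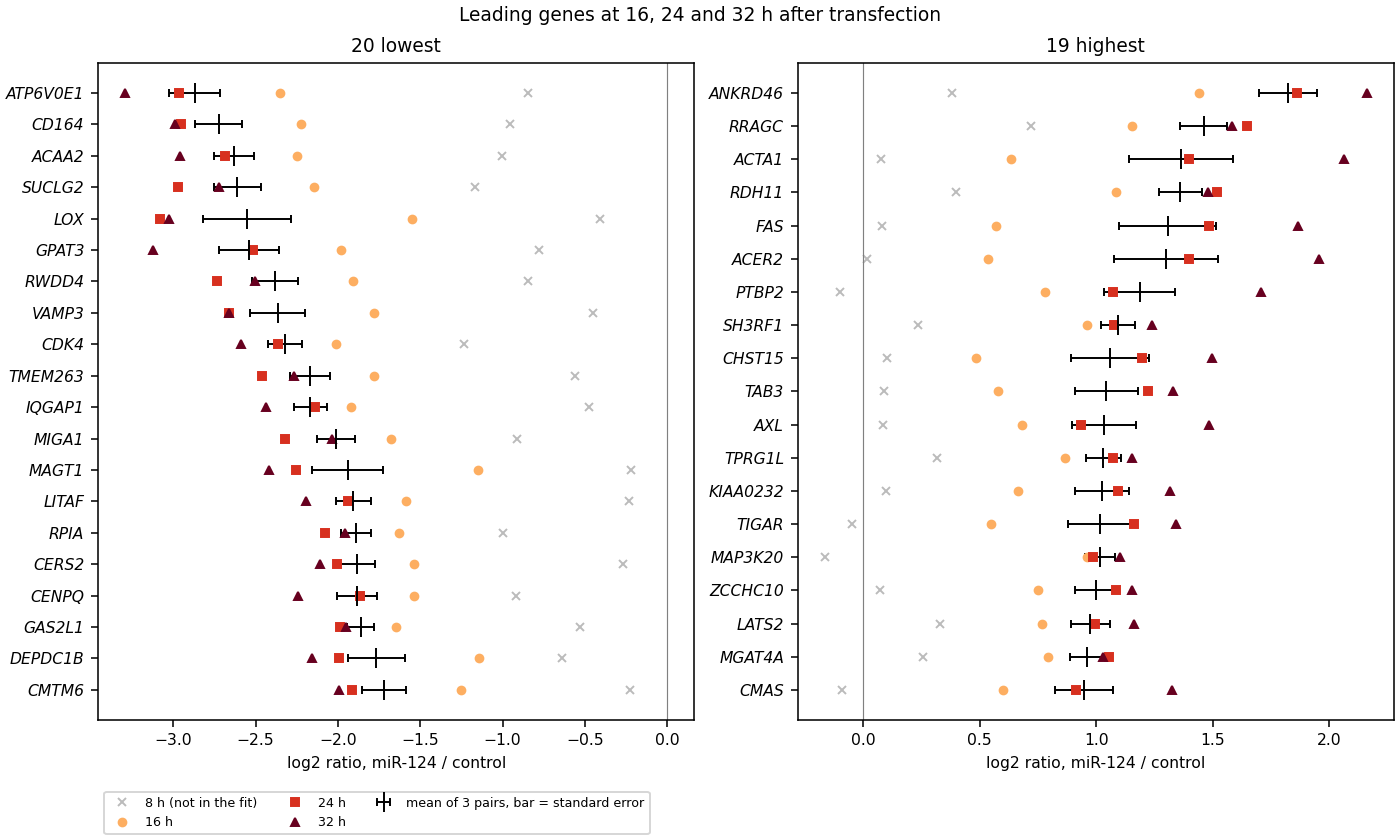
Log2 ratio of miR-124 to control (x axis) of the 20 genes that fell furthest and 19 that rose most, with the 16, 24 and 32 h pairs as points, their mean as a tick and its moderated standard error as a bar (n = 3 pairs). Crosses give the 8 h pair, which the fit did not use. At 16 h the ratios of the 20 lie at −1.14 or below and those of the 19 at 0.48 or above.

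A gene's other probe sets gave the same direction in most cases, but often a smaller change. Of the 39 leading genes, 24 had another probe set above the filter, and 40 of their 44 other probe sets had the same sign in each of the 3 pairs. In size, 15 of the 44 changed by less than 50% of the value given, in 11 genes, and 9 were not called in the limma fit over every probe set. ACAA2 and LOX are given above, RRAGC had one at 1.87 and one at 0.13, and the other of AXL was at 0.14. TMEM263 and MAP3K20 had an opposite one. For TMEM263 another probe set stood at 0.09, and for MAP3K20 others stood at −0.24 and −0.17, so the probe sets of these 2 genes disagree.

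Genes reported elsewhere as miR-124 targets were mostly lower. Of 40 tested, 27 were lower (67.5%) and 2 higher, with a median log2 change of −0.57 against 0.03 for all genes. Without 16, 24 or 32 h the count lower was 30, 23 and 24. The list came from general knowledge, and these arrays may be among its sources, so it is not independent evidence. VAMP3, CD164, SUCLG2, IQGAP1 and CERS2 are on it and are given above. TEAD1, a DNA-binding partner of YAP1, was at −1.51 ± 0.09, the transcription factor ELK3 at −1.39 ± 0.16, ROCK1, a kinase that contracts the actin cytoskeleton, at −1.20 ± 0.07, and the liver transcription factor CEBPA at −1.01 ± 0.06. A probe set of ROCK1 other than the one used stood at 0.06. ITGB1, the shared beta subunit of many integrins, was among the brightest, at 12.65, 12.74 and 12.78 in the control and 12.11, 11.59 and 11.49 with miR-124 (−0.998 ± 0.13). SPHK1, which makes sphingosine 1-phosphate, was at 10.04, 9.82 and 9.80 against 9.14, 8.97 and 8.84 (−0.90 ± 0.06). EZH2, the histone methyltransferase of PRC2, was at −0.63 ± 0.09, and the glucocorticoid receptor NR3C1 at −0.66 ± 0.08. The 2 called higher were RDH10 (0.28 ± 0.06) and FLOT1 (0.28 ± 0.08). The 11 not called had changes between −0.25 and 0.14 and included LAMC1 (−0.18 ± 0.07), STAT3 (−0.17) and RAC1 (−0.06).

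The PTB proteins, which repress neuronal exons, moved in opposite directions. PTBP1, the form of non-neuronal cells, fell from 11.84, 11.71 and 11.76 in the control to 10.86, 10.34 and 10.32 (−1.27 ± 0.09, adjusted p = 0.000375). PTBP3 was at 10.84, 10.77 and 10.92 against 10.24, 9.61 and 9.62 (−1.02 ± 0.13). PTBP2 rose as given above, and its ratio was −0.10 at 8 h, where that of PTBP1 was −0.12. Both ratios were near 0 at 8 h and far apart by 16 h. The splicing regulator MBNL1 fell as well (−1.04 ± 0.06). Of 11 genes of the list tested, 3 fell and 3 rose, but PTBP2 was the only one that rose without 24 h or without 32 h. Of 12 neuron genes tested, PTBP2 was the only one called. ENO2, the neuronal enolase, was at 0.54 and the other 10 were between −0.14 and 0.14.

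In the REST corepressor complex 4 of 12 genes fell and none rose. All 3 small phosphatases were lower: CTDSP1 at 9.69, 9.74 and 9.65 against 8.97, 8.94 and 8.90 (−0.76 ± 0.06), CTDSPL at 8.71, 8.64 and 8.27 against 8.09, 7.87 and 7.93 (−0.58 ± 0.09), and CTDSP2 at 9.30, 8.97 and 9.14 against 8.92, 8.71 and 8.90 (−0.29 ± 0.06). The corepressor RCOR1 was also lower (−0.58 ± 0.08). REST itself was not called (−0.17), with overlapping arms at 8.17, 8.00 and 8.21 against 8.12, 7.74 and 8.02. The other 7 tested, among them HDAC1 (0.22) and KDM1A (−0.03), were not called. The list had 5 lower and 1 higher without 16 h, and 3 lower and none higher without 24 h or without 32 h.

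**Figure D3:**
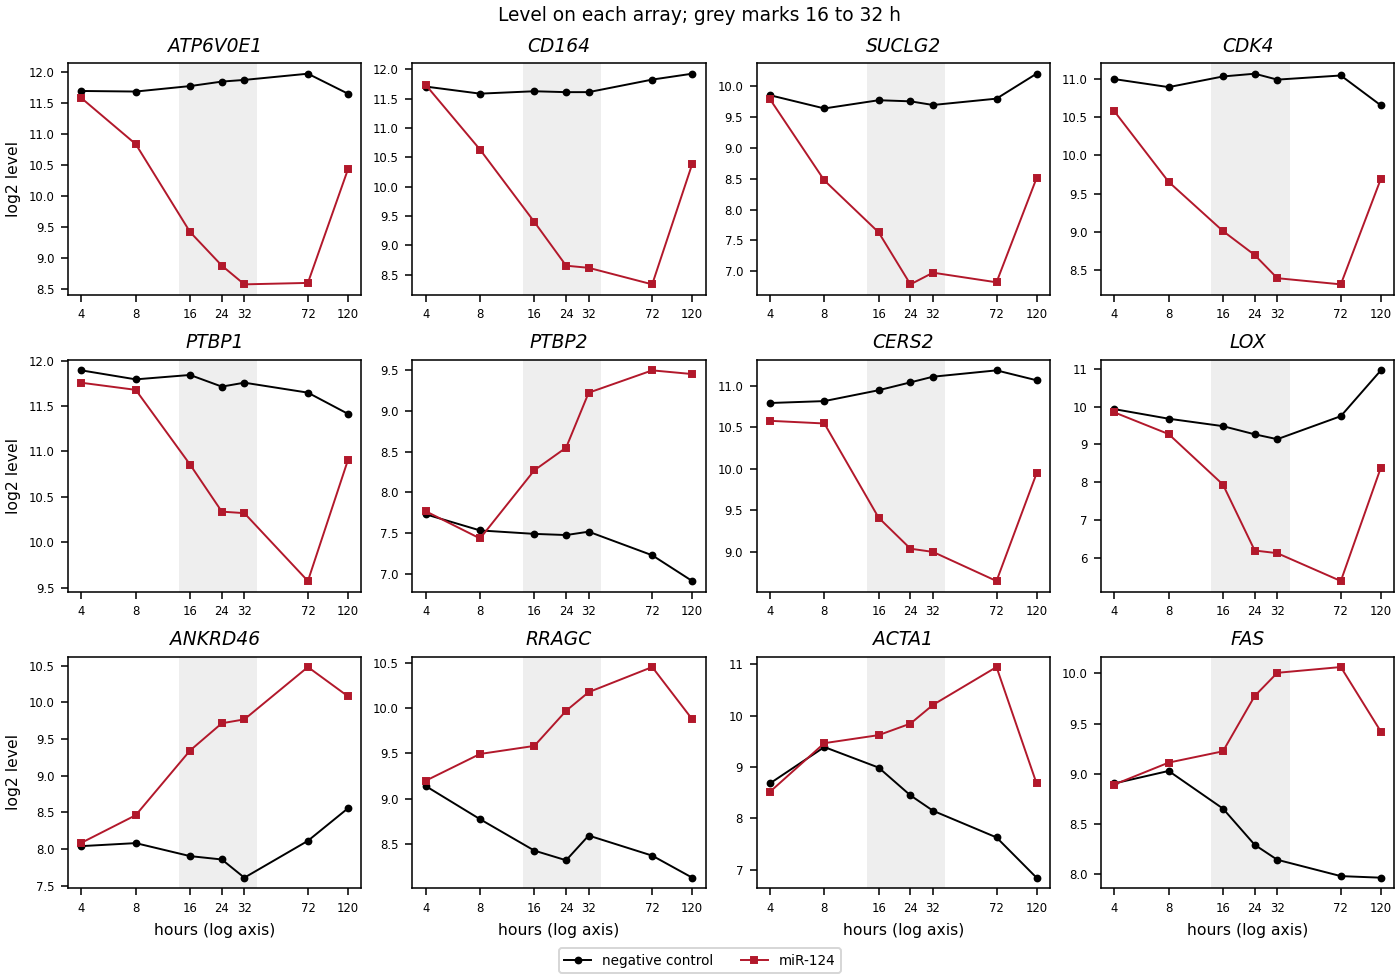
Log2 level on each array by hour after transfection (log axis) for 12 genes, control in black and miR-124 in red, each panel with its own y axis; grey marks 16 to 32 h. ATP6V0E1, CD164, SUCLG2, CDK4, PTBP1, CERS2 and LOX lie below control at these hours, and PTBP2, ANKRD46, RRAGC, ACTA1 and FAS above it.

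In several complexes a subunit fell steeply beside partners that rose or were not called. In the vacuolar proton pump, which acidifies lysosomes, 3 of 16 subunits fell and 4 rose. ATP6V0E1 and ATP6V1G1 (11.28, 11.33 and 11.43 against 10.59, 10.39 and 10.26, −0.93 ± 0.09) fell most. The subunits ATP6V1H (0.49 ± 0.08), ATP6V1C1 (0.41 ± 0.06), ATP6V1E1 (0.35 ± 0.06) and ATP6V1D (0.30 ± 0.06) of the same pump rose. ATP6V0E2, the other gene for the e subunit, was at 0.04 and was not called. The count that rose was 9 without 16 h, 1 without 24 h and 2 without 32 h.

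In succinate-CoA ligase the subunits also differed. Its GTP-specific beta subunit SUCLG2 fell 6.11-fold, its ATP-specific beta subunit SUCLA2 rose slightly (10.02, 10.02 and 9.98 against 10.29, 10.30 and 10.38, 0.32 ± 0.06), and the shared alpha subunit SUCLG1 was not called (0.08). Apart from DLD, at 0.27 ± 0.06, no other gene of the 15 tested in the citric acid cycle list was called. The calls of SUCLA2 and DLD were lost without 24 h and without 32 h, where SUCLG2 remained. In fatty acid oxidation 4 of 17 fell and 1 rose. ACAA2, the acyl-CoA dehydrogenase ACADM (−0.82 ± 0.11), the carnitine carrier SLC25A20 (−0.76 ± 0.08) and CPT1A, which commits fatty acids to the mitochondrion (−0.64 ± 0.11), were lower. Both subunits of the trifunctional protein, HADHA (−0.09) and HADHB (−0.01), were not called. Without 16 h, 8 fell and 2 rose, and without 24 h or 32 h none rose. ACSL1, which activates long-chain fatty acids, fell from 11.10, 10.98 and 11.08 to 9.96, 9.45 and 9.54 (−1.40 ± 0.09).

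Among vesicle SNAREs, the proteins that fuse membranes, VAMP3 was at 11.14, 11.24 and 11.28 against 9.36, 8.58 and 8.62, and SEC22B and BET1 fell by less (−0.23 ± 0.06 and −0.31 ± 0.08). The count was 3 of 26 lower and 6 higher, with STX12 (0.51 ± 0.07) and STX3 (0.49 ± 0.07) leading the 6. Without 24 h, and likewise without 32 h, VAMP3 was the only SNARE called lower and 2 were called higher. The closest relative of VAMP3, VAMP2, was at 0.19 and was not called. In the coats that carry cargo between ER and Golgi, 7 of 24 fell (29.2%) and 2 rose. They were led by SEC13 (−0.71 ± 0.09), the cargo receptor SURF4 (−0.70 ± 0.06) and SEC24D (−0.58 ± 0.09), while SEC24C rose (0.62 ± 0.13). Without 24 h, 3 fell and none rose, and without 32 h, 3 fell and 1 rose.

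Sphingolipid enzymes fell in 4 of 16. CERS2, which makes ceramides with very long acyl chains, was at 10.94, 11.04 and 11.11 against 9.41, 9.04 and 9.00, and SPHK1 and the lyase SGPL1 (−0.47 ± 0.06) fell too. CERS5, a synthase of shorter chains, rose (0.64 ± 0.10), while CERS4 (−0.08) and CERS6 (0.17) were not called. Of the enzymes that modify collagen, 5 of 14 fell and none rose, and the count lower was 5 without any 1 of the hours. Beside LOX these were the prolyl hydroxylases P4HA1 (9.42, 9.38 and 9.10 against 8.87, 8.03 and 7.54, −1.15 ± 0.17) and P4HA2 (−0.47 ± 0.07), and the lysyl hydroxylases PLOD2 (10.97, 10.88 and 10.83 against 10.23, 9.71 and 9.53, −1.07 ± 0.11) and PLOD3 (−0.38 ± 0.07). PLOD1 (−0.05) and P4HB, the partner of the prolyl hydroxylases (−0.10), were not called. P4HA1 and P4HA2 also belong to the hypoxia response, of which 3 of 18 fell and VEGFA rose (0.50 ± 0.09). Of that list none rose without 24 h, and 2 and 3 did without 32 h and without 16 h.

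**Figure D4:**
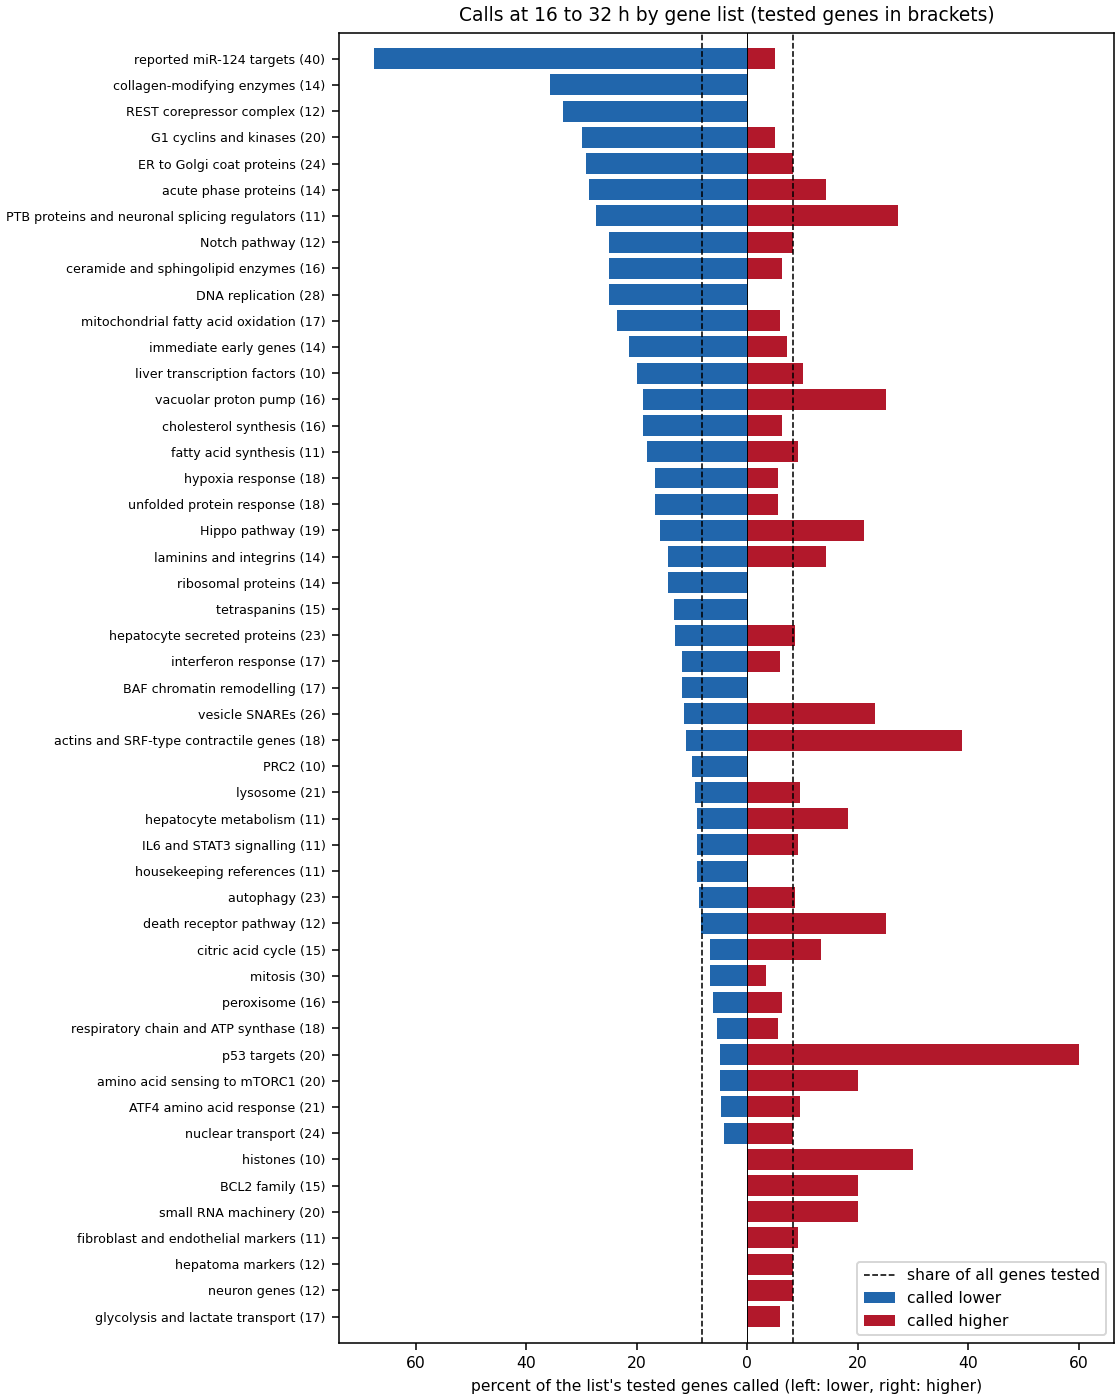
Percent of the tested genes of each list that were called lower (blue, left) or higher (red, right) at 16 to 32 h, for the lists reported that had at least 10 tested genes, whose number is in brackets. Dashed lines give the shares of all genes tested, 8.18% lower and 8.3% higher; reported miR-124 targets reach 67.5% lower and p53 targets 60.0% higher.

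Several kinases of the G1 phase were well below control at 16 h, while the medians of whole lists were small at that hour: −0.16 for G1, 0.02 for DNA replication and 0.10 for mitosis. Of 20 G1 genes tested, 6 fell (30.0%) and 1 rose. After CDK4 came CDK2, at 9.12, 9.19 and 9.02 against 7.95, 7.38 and 7.24 (−1.59 ± 0.12), then CDK6, at 10.25, 10.10 and 10.66 against 9.65, 9.26 and 9.59 (−0.84 ± 0.09), and the transcription factor E2F3 (−0.56 ± 0.10). At 8 h CDK2 was at −0.54 and CDK6 at −0.12. The cyclin CCND1, which binds CDK4 and CDK6, was not called (−0.13), and the inhibitor CDKN1B rose slightly (0.25 ± 0.06). Without 16, 24 or 32 h, 9, 4 and 5 G1 genes fell, and 3, 0 and 0 rose.

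DNA replication genes were called in 7 of 28, all lower, with list medians of 0.02, −0.03 and −0.22 at the 3 hours and −1.50 at 72 h. GINS2, of the replicative helicase, was at 9.73, 9.05 and 8.59 with miR-124 against 9.87, 9.73 and 9.68, so that its arms met at 16 h (−0.64 ± 0.16). The licensing factor CDC6 was at −0.56 ± 0.13, MCM10 at −0.55 ± 0.14 and the clamp loader subunit RFC5 at −0.46 ± 0.12. None of the 28 was called without 24 h or without 32 h, and 12 were without 16 h. Calls over all genes also became fewer without 24 h or 32 h and more without 16 h. Mitosis genes numbered 2 lower (6.67%) and 1 higher (3.33%) of 30, both below the shares of all genes. The list medians were 0.10, −0.01 and −0.12 at 16, 24 and 32 h and −2.15 at 72 h. CENPQ and the kinase AURKA (−0.57 ± 0.10) were lower and NUF2 was higher (0.32 ± 0.07), while CDK1 (0.12), CCNB1 (0.03) and TOP2A (0.01) were not called. CENPQ had the largest change of the 30, at 5.70, 5.36 and 5.12 against 7.24, 7.22 and 7.37, with its miR-124 levels under the filter. Its ratio was −0.92 at 8 h. Without 16 h, 9 mitosis genes fell and 2 rose, and NUF2 was not called without 24 h.

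Genes induced by the tumour suppressor p53 rose. Of 20 tested, 12 were higher (60.0%) and 1 lower, with a median of 0.35, and 17, 6 and 6 were higher without 16, 24 and 32 h. The list median went from 0.00 at 8 h to 0.12, 0.45 and 0.53 at the 3 hours. FAS led. SESN1, a stress protein that also restrains mTORC1, was at 8.60, 8.41 and 8.18 against 8.99, 9.34 and 9.50 (0.88 ± 0.15). TP53I3, a quinone reductase, was level in the control at 8.90, 8.88 and 8.90 and stood at 9.05, 9.89 and 10.34 with miR-124 (0.87 ± 0.21). DDB2, of DNA repair, was at 8.44, 8.36 and 8.29 against 8.65, 9.15 and 9.27 (0.66 ± 0.13). GDF15, a secreted stress factor, was at 11.71, 11.76 and 11.75 against 12.04, 12.46 and 12.57 (0.62 ± 0.10). MDM2, the ubiquitin ligase that limits p53, was at 10.69, 10.68 and 10.47 against 10.96, 11.14 and 11.22 (0.50 ± 0.10). In each of these the arms were closest at 16 h. BAX (0.36 ± 0.08) and GADD45A (0.39 ± 0.09) rose by less. TNFRSF10B, a receptor for TRAIL, was the one member that fell (−0.25 ± 0.06).

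CDKN1A, the p21 inhibitor and a much used p53 target, was not called (−0.19), with overlapping arms at 9.97, 10.10 and 10.03 against 9.63, 9.88 and 10.03. XPC (0.25), RRM2B (−0.25) and AEN (0.34) were not called either. ACER2 and TIGAR, among the 19 highest, are known p53 targets that the list did not hold. They were picked because they rose, so they are no added evidence, and other targets outside the list were not counted. The p53 list, like the others, was chosen with earlier results of these data known. In the death receptor pathway, 3 of 12 rose and TNFRSF10B fell. Without 24 h or without 32 h, 1 rose and none fell. Of 15 BCL2 family genes 3 rose, BAX, BCL2L2 (0.40 ± 0.07) and BCL2L13 (0.38 ± 0.09). Without 24 h none of the 15 was called, without 32 h 1 was and without 16 h 7 were, a shift that calls over all genes shared.

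**Figure D5:**
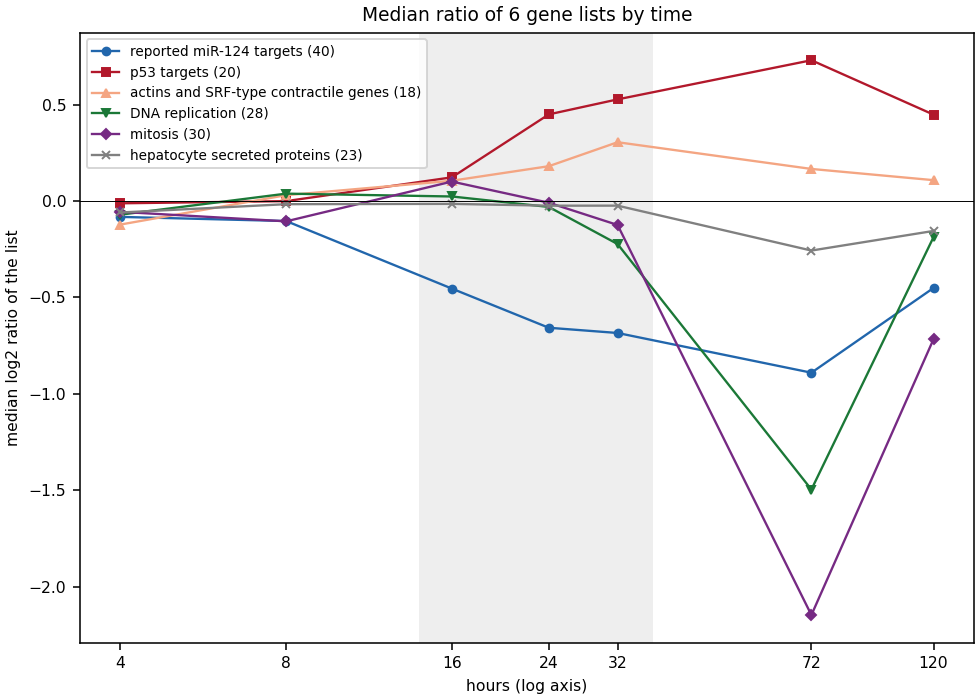
Median log2 ratio of miR-124 to control (y axis) at each hour (log axis) over the tested genes of 6 lists, with the number of genes in brackets; grey marks 16 to 32 h. Reported targets are at −0.45 by 16 h, p53 targets rise from 0.12 at 16 h to 0.53 at 32 h, and DNA replication and mitosis reach −1.50 and −2.15 only at 72 h.

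Genes of the actin cytoskeleton that the factor SRF drives rose in part. Of 18 tested, 7 were higher (38.9%) and 2 lower, with 9, 4 and 6 higher without 16, 24 and 32 h. After ACTA1 came MYL9, a myosin light chain, at 8.18, 8.03 and 7.78 against 8.38, 8.78 and 9.11 (0.76 ± 0.18), and TAGLN, an actin-binding protein of smooth muscle, at 9.73, 9.59 and 9.61 against 10.06, 10.25 and 10.61 (0.66 ± 0.12). SRF itself rose (0.42 ± 0.06), as did VCL (0.41 ± 0.06), FHL2 (0.35 ± 0.06) and ACTN1 (0.28 ± 0.06). ACTB, the actin of most cells, fell by 0.34 (± 0.06), and CNN3 fell further (−1.10 ± 0.09). SRF binds the CArG box, a short palindrome of A and T bases between C and G pairs.

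The promoters of ACTA1 and SRF are shown because both genes rose and both carry the box. They are from RefSeq on GRCh38.p14, from 250 bases before to 50 after the start, 5′ to 3′ on the gene's strand, with CArG boxes in capitals. That of ACTA1 is chr1:229434045-229434344 on the minus strand and that of SRF is chr6:43171019-43171318 on the plus strand.
ACTA1: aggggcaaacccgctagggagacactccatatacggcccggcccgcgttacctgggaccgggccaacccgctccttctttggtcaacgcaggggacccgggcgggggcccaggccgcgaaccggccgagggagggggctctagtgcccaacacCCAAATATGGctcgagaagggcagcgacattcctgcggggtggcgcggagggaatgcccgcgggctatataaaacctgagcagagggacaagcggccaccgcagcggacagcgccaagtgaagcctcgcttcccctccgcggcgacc
SRF: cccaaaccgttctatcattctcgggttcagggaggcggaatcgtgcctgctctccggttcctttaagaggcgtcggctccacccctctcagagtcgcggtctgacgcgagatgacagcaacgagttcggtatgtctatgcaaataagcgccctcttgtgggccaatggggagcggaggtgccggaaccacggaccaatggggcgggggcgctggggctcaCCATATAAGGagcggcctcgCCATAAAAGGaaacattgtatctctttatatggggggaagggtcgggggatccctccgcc

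The ACTA1 window held 1 box and this SRF window 2. Of the 18 genes, 15 had a promoter in the table, and 8 of these (53.3%) held a box, against 177 of 10545 tested genes with a promoter (1.68%). By window the shares were 30.3% of 33 and 1.22% of 15273. Of the 5 with a promoter that rose, 4 held one. The list was put together from genes known for SRF, so its share is not independent. Over all called genes the share was 1.87% among those that rose and 1.8% among those that fell, near that of all tested genes. Both strands were read at once, as the motif is its own reverse complement.

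The Hippo pathway, which restrains growth through the coactivator YAP1, changed on both sides. The effectors TEAD1 and YAP1 (11.01, 11.04 and 10.99 against 10.69, 10.20 and 10.31, −0.61 ± 0.10) fell, as did TEAD4 (−0.28 ± 0.07). The kinases LATS2 (9.03, 8.75 and 8.90 against 9.80, 9.75 and 10.07, 0.98 ± 0.08) and STK3 (0.74 ± 0.10), which inhibit YAP1, rose. The YAP1 target genes ANKRD1 (0.72 ± 0.07) and CCN1 (0.29 ± 0.06) rose as well. Of 19 tested, 3 fell and 4 rose, 8 rose without 16 h, and 2 fell and 3 rose without 24 h or without 32 h.

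In the amino acid pathway to mTORC1, 4 of 20 rose: RRAGC, SESN1, LAMTOR3 (0.44 ± 0.06), a part of the Ragulator that holds the Rag GTPases at the lysosome, and RRAGD (0.35 ± 0.06), the alternative to RRAGC. RPTOR, a core subunit of mTORC1, fell (−0.33 ± 0.06). RRAGA, the usual partner of RRAGC, was at 0.20 and was not called. Without 16 h, 11 of the 20 rose. Without 24 h, RPTOR was not called and 3 rose.

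The small RNA machinery itself had 4 of 20 genes higher and none lower. TNRC6A, which binds Argonaute, was at 9.69, 9.75 and 9.74 against 9.97, 10.45 and 10.82 (0.69 ± 0.13). AGO4 was at 6.84, 6.82 and 6.91 against 7.34, 7.56 and 7.71 (0.68 ± 0.08). The exonuclease XRN1 (0.44 ± 0.07) and the deadenylase CNOT6 (0.42 ± 0.08) rose as well. AGO2, the main Argonaute of most cells, was not called (−0.10), nor were DICER1 (0.13) and the other TNRC6 genes, TNRC6B (0.06) and TNRC6C (0.17). Without 16 h, 6 rose and 2 fell.

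Receptors and chromatin factors changed gene by gene. In the Notch pathway, the ligand JAG1 (−0.75 ± 0.08), the transcription factor RBPJ (−0.47 ± 0.11) and SOX9 (−0.37 ± 0.07) fell and the receptor NOTCH2 rose (0.25 ± 0.07), 4 of 12 tested. Among laminins and integrins, ITGB1 and ITGA6 (−0.30 ± 0.07) fell, while the alpha subunits ITGA2 (0.39 ± 0.07) and ITGAV (0.32 ± 0.06), which pair with ITGB1, rose. That was 14.3% of 14 tested each way, against 8.18% lower and 8.3% higher of all genes. In the BAF chromatin remodelling complexes SMARCC1 (−0.41 ± 0.07) and PHF10 (−0.57 ± 0.11) fell, 2 of 17 (11.8%), not far from the share of all genes. ACTL6A, the BAF subunit that neurons replace and a reported target, was not called (−0.05). In PRC2, EZH2 was the only 1 of 10 called, and its paralog EZH1 was at 0.06. Without 24 h, 1 Notch gene fell and none rose, 1 laminin or integrin gene fell and none rose, and 1 BAF gene fell. Without 16 h, 3 Notch genes rose, 3 BAF genes rose and 2 PRC2 genes fell. Without 32 h, 1 laminin or integrin gene fell and 1 rose.

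Calls in a further 6 lists were few in number, to be read against 8.18% lower and 8.3% higher of all genes. In autophagy, the conjugation factors ATG3 (−0.63 ± 0.13) and ATG12 (−0.34 ± 0.09) fell and RB1CC1 (0.45 ± 0.07) and GABARAPL2 (0.43 ± 0.07) rose, of 23 tested, 8.7% in each direction and so near the shares of all genes. Without 16 h, 9 rose, and without 24 h 1 fell and 1 rose. Of 14 immediate early genes, MYC (−0.43 ± 0.11), KLF6 (−0.38 ± 0.06) and EGR1 (−0.33 ± 0.08) fell (21.4%) and IER3 rose (0.40 ± 0.08). In nuclear transport, the importin IPO4 was the only 1 of 24 that fell (−0.68 ± 0.07), and 2 rose. Of 15 tetraspanins, TSPAN8 (−0.59 ± 0.10) and TSPAN14 (−0.42 ± 0.07) fell (13.3%). No glycolysis gene of 17 fell and 1 rose, while without 16 h 8 rose and without 24 h or 32 h none did. Calls over all genes shifted the same way. Of 16 peroxisomal genes catalase, CAT, fell (−0.51 ± 0.08) and the transporter ABCD3 rose (0.28 ± 0.06). Without 24 h, 1 immediate early gene and 1 tetraspanin fell, and no immediate early, nuclear transport or peroxisomal gene rose.

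Liver functions changed in single genes. Of 23 secreted proteins of hepatocytes, 3 fell (13.0%) and 2 rose (8.7%), against 8.18% and 8.3% of all genes, with a median of −0.04. Haptoglobin, HP, was at 10.46, 10.34 and 10.39 against 10.22, 9.53 and 9.23 (−0.73 ± 0.15), and ceruloplasmin CP (−0.48 ± 0.07) and complement C3 (−0.37 ± 0.06) fell too. Acute phase proteins, a list that shares these 3, fell in 4 of 14 with SERPINA3 (−0.52 ± 0.07) as the other, and rose in 2, the fibrinogen genes FGA (0.23 ± 0.06) and FGB. Neither FGA nor FGB was called without 24 h or without 32 h. CEBPA, at 11.13, 10.98 and 10.72 in the control, was at 10.13, 10.04 and 9.62 with miR-124, and CEBPD fell by 0.39 (± 0.08). HMGCS1 (−0.74 ± 0.08) and LSS (−0.71 ± 0.06), both of cholesterol synthesis, fell, with 3 of 16 lower and 1 higher, and 5 lower and 3 higher without 16 h. Without 24 h, 2 fell and none rose. In the pentose phosphate pathway RPIA and PRPS2 (−0.62 ± 0.15) fell, and the other 6 tested were between −0.08 and 0.13; without 24 h or without 32 h, 1 of the list fell.

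The remaining lists held few calls in number, though the share of some was above the 8.18% lower or 8.3% higher over all genes. Of 21 genes of the ATF4 response, 1 fell and 2 rose. Of 17 interferon genes 2 fell and 1 rose, with USP18, which restrains that response, at −0.59 ± 0.06. Of 18 genes of the unfolded protein response, 3 fell (16.7%) and 1 rose (5.56%), with the sensor ERN1 at −0.56 ± 0.08. Of 18 respiratory chain and ATP synthase genes 1 fell, NDUFS3 (−0.57 ± 0.11), and 1 rose, NDUFS1 (0.33 ± 0.08). Of 14 ribosomal proteins, RPL19 (−0.51 ± 0.07) and RPL30 (−0.53 ± 0.09) fell and the other 12 lay between −0.11 and 0.05. Histone genes rose in 3 of 10 (30.0%), led by H2AC6 (0.79 ± 0.17) and H2BC21 (0.78 ± 0.14). H2AC6 was at 8.15, 8.15 and 8.38 against 8.32, 9.17 and 9.56, with overlapping arms. Without 16, 24 and 32 h, 5, 1 and 2 histone genes rose. Histone messages of this family are near copies of each other, so probe sets may read several. Without 24 h, the ATF4, interferon, unfolded protein and respiratory chain lists each had 1 gene lower, and only the unfolded protein list had a gene higher, 1. Without 16 h, where 2498 of all genes were called higher, 6 ATF4 and 4 interferon genes rose. In all, 810 genes of 54 lists were tested.

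Whether the ratio still changed between 16 and 32 h was asked with the slope of the 3 log2 ratios per doubling of time, tested with limma over all genes. It was called in 1639 genes, 720 falling (5.48%) and 919 rising (7%). Of the genes called lower, 373 (34.7%) also had a falling slope, and of those called higher 194 (17.8%) had a rising one. Of the slope calls, 345 of the 720 falling and 721 of the 919 rising were in genes not called over the 3 pairs. The median gene with a falling slope changed by −0.47 from 16 to 32 h with miR-124 and by 0.06 in the control. The median gene with a rising slope changed by 0.34 with miR-124 and by −0.16 in the control. The slope has 1 residual degree of freedom per gene and rests on a spread shared across genes, and with each gene's own spread none was called by limma's fit without moderation (1119 at an unadjusted p under 0.05). With each array centred on its median, 531 fell and 319 rose, so the larger direction turned.

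The steepest falls were those of DSG2-AS1 (−1.65), LOX (−1.55), PRTG (−1.35), IL18 (−1.32), an inflammatory cytokine, and MAGT1 (−1.31). The steepest rises were those of ACER2 (1.42), ACTA1 (1.42), the integrin adaptor TLN1 (1.36), FAS (1.31) and TP53I3 (1.31). DSG2-AS1 followed no line, with ratios of 0.44, −2.62 and −0.96, and TLN1 crossed 0, from −0.54 at 16 h to 0.79 at 32 h. Neither was called over the 3 pairs. Slope calls by list are to be read against 7% rising and 5.48% falling of all genes tested. Rising slopes were called in 11 of 20 p53 targets, 5 of 10 histones and 5 of 15 BCL2 family genes. They were also called in 4 of 14 immediate early genes, 5 of 18 contractile genes and 5 of 20 genes of the amino acid pathway to mTORC1. Falling ones were called in 15 of 40 reported targets, 8 of 28 replication genes, 8 of 30 mitosis genes and 7 of 20 G1 genes. Other lists had slope calls too.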

How the data were processed

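The authors deposited one log2 value per probe set and array, computed with RMA per the submitters' processing notes; version and settings are not given in the sources used here. RMA gives all arrays the same distribution, so a shift in total messenger RNA per cell cannot be seen. Values ran from 2.93 to 14.4, and arrays have no depth: their number limits the precision. Of 54675 probe sets, 62 were controls, 41091 had 1 gene symbol in the platform annotation, 1801 several and 11721 none listed; 41037 matched the RefSeq gene table. The filter was the median of all other probe sets' means over the 14 arrays.

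The members, the 54 gene lists and the tests were chosen with earlier results of these data known. Tests ran in R 4.3.3 with limma 3.58.1 (lmFit, eBayes), with time point as a block plus transfection (2 residual degrees of freedom). The arrays of an hour were taken as pairs from their labels; their deviations from the group means correlated at 0.209, 0.197 and 0.384. Scripts were tested on simulated data. Named genes were the 20 lowest and 20 highest calls (1 of the latter, on the Y chromosome, is not reported here), the 4 largest called changes in each list, members where a list was counted, the 5 steepest slopes each way and the 10 lowest and 5 highest ratios at 16 h. The result of 1 list is not reported here. Lists share genes, among them the CTDSP genes, IQGAP1 and ROCK1 with the reported targets. Figures used matplotlib 3.10.9 in Python 3.11.15. Alternatives are in the closing section.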

Additional observations from a re-analysis of the deposited data

Results flagged for a closer look

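The 10 genes here were the 5 steepest each way among 1639 called by the slope test over the 3 ratios at 16, 24 and 32 h. That test was limma's, at an adjusted p under 0.05, in log2 per doubling of time. With each gene's own spread no slope was called, and DSG2-AS1 followed no line. DSG2-AS1 was at −1.65, LOX at −1.55, PRTG at −1.35, IL18 at −1.32 and MAGT1 at −1.31. ACER2 was at 1.42, ACTA1 at 1.42, TLN1 at 1.36, FAS at 1.31 and TP53I3 at 1.31. PRTG fell by 1.49 with miR-124 from 16 to 32 h and by 0.11 in the control. For IL18 the control rose by 0.72 as miR-124 fell by 0.62. In TP53I3 the control changed by 0.00 and miR-124 by 1.30, and in TLN1 by −0.48 and 0.86. The ratios at 24 h of DSG2-AS1 (−2.62) and LOX (−3.08) lay outside those at 16 and 32 h.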

How the results depend on the processing

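The count of 2164 genes was within 1.5 times under 7 alternatives, from 1490 without the replicate block (780 lower, 710 higher) to 3081 over every probe set. It moved to 1317 with the median of a gene's probe sets, 1028 with the spread shared over 14 arrays and 550 with a minimum of 1.5-fold. Leaving out 1 hour gave 898 to 4250. The slope count of 1639 became 628 with the 8 h pair added, 1082 with no filter, 850 with centring and 0 with each gene's own spread, and 1456 had the 3 ratios in order. It was 1161 with time in hours; the slope could not be fitted without an hour. The cause of these shifts was not tested. Of 166 named calls, 76 kept direction and call in every alternative other than a single other probe set. Without the replicate block 38 were not called. Of the single other probe sets of these genes, 102 kept direction and call, 68 kept direction without passing and 5 turned; the median of probe sets ended 32 calls and turned 2. Other probe sets turned FLOT1 (−0.0719), MAP3K20 (−0.24, −0.17), ROCK1 (0.0560) and TMEM263 (0.0853), and the median of probe sets turned ROCK1 (0.0560) and TMEM263 (0.0853). Each of the 2164 calls was also made without 16 h, but that fit called 4250 genes. Its smallest adjusted p was 7.72e-17 against 9.99e-05 in the main fit (limma), so keeping a call there is no measure of stability. With 1 array an arm and hour, and dim genes near the filter (18 called lower and 17 higher had an arm under it), small changes are limited most.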
